A study of Mus musculus with 6 samples.

Results

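Iron and haemoglobin handling in lipopolysaccharide-treated mouse macrophages was followed through 8 genes: Hp, Cd163, Tfrc, Steap3, Steap4, Fth1, Slc11a1 and Slc40a1. They were taken by gene identity, as every probe set (a group of oligonucleotides on the array that reads a single transcript) assigned to 1 of these genes and to no other. All 8 were found, of 18193 genes with such a probe set, and they have 18 of the 45040 probe sets used. Tfrc has 6 of them, Steap3 has 3, Steap4, Fth1 and Slc40a1 have 2 each, and Hp, Cd163 and Slc11a1 have 1 each. Macrophage RNA was hybridised to 6 single-colour Affymetrix arrays, 1 per sample. Of these, 2 hold macrophages of Trib1 knockout mice given lipopolysaccharide (LPS, a bacterial outer membrane component that activates macrophages) and 2 hold macrophages of wild-type mice of the same Trib1 line given LPS. Another wild-type pair, called the LPS pair here, has 1 array with LPS and 1 with medium, and serves to find LPS-inducible genes. Strain, age, source of the macrophages, LPS dose and time, and the deleted part of Trib1 are not given in the labels, nor do they tie an array to an animal or a culture. The p-values below therefore measure only the spread between these arrays.

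Macrophages take up haemoglobin and ageing red cells, break down haem, and either store the iron or return it to plasma. Haptoglobin (Hp) binds haemoglobin released from red cells, and Cd163 encodes a macrophage scavenger receptor for haemoglobin and its haptoglobin complex. Transferrin receptor (Tfrc) brings in transferrin-bound iron, and the STEAP proteins reduce ferric iron or copper so that transporters can move it. Ferritin heavy chain (Fth1) oxidises and stores iron, Slc11a1 (Nramp1) moves divalent metal out of the phagosome, and ferroportin (Slc40a1) is the iron exporter of the cell. Ferritin and transferrin receptor are also controlled after transcription by iron regulatory proteins, a step that RNA arrays read only in part. Trib1 encodes a pseudokinase that promotes degradation of C/EBP transcription factors.

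Values are scaled intensities: the deposited signals after each array was brought to the same trimmed mean. Those under a floor of 29.9, the level below which 40% of all values lie, were set to it before log2 was taken. The arrays of the LPS pair stood apart from the 4 Trib1-line arrays. Their deposited trimmed mean was 500.0 on both, against 95.5 to 106.6 on the others. Xist, expressed from the inactive X chromosome, measured 980.5 on the LPS array and 1616 on the medium array of the pair, against 2.03 to 5.56 on the Trib1-line arrays. The Y-linked gene Eif2s3y measured 4.74 and 0.33 on the pair, against 218.8 to 534.2. The ratio of 3′ to 5′ control probe sets lay between 1.05 and 1.12 for Actb on all 6 arrays. All 10 macrophage markers, among them Adgre1, Csf1r and Cd68, were above the floor on every array. Il6, an LPS-inducible cytokine gene, measured 8096 to 17318 on the 5 LPS arrays, against 59.0 in medium, and Il12b and Nos2 measured 8829 to 18743 and 4615 to 10295, against 109.8 and 42.6. Trib1 probe set 1424880_at measured 88.1 and 20.9 on knockout arrays and 17.9 and 17.5 on wild-type arrays of the line, with 189.3 and 383.5 on the LPS and medium arrays of the wild-type pair. Its other probe set 1424881_at measured 32.3 and 38.7 on knockout arrays and 20.2 and 63.0 on wild-type arrays of the line, with 29.3 and 37.1 on the pair. At neither did both knockout arrays lie below both wild-type arrays of the line, and their position relative to the deletion is not given, so they do not check the genotype labels.

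**Figure D1:**
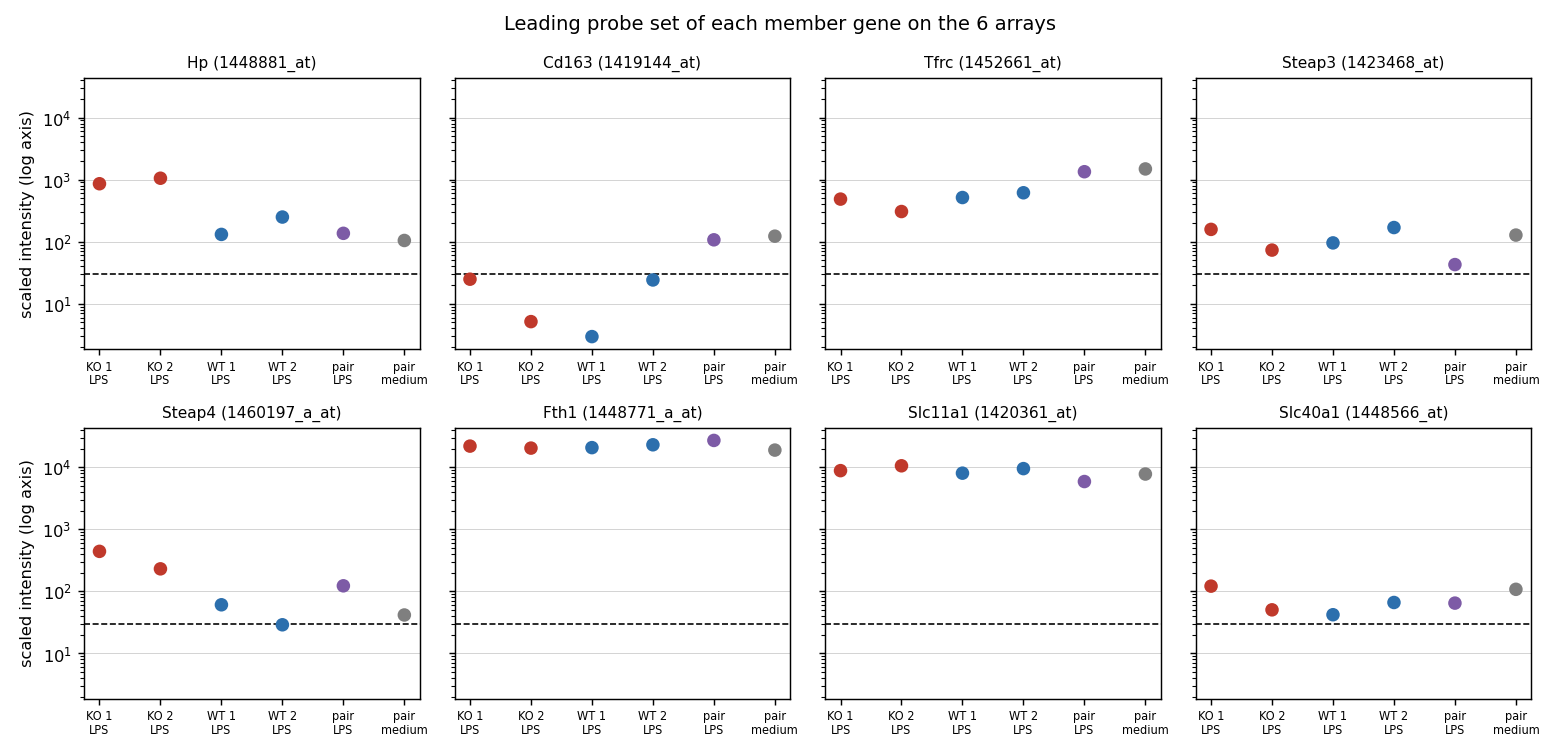
Scaled intensity (log axis) of the probe set with the highest mean for each of the 8 genes on the 2 knockout (KO), the 2 wild-type Trib1-line (WT) and the 2 LPS pair arrays, with the floor of 29.9 as a dashed line. Hp and Steap4 are highest on both knockout arrays, while Cd163 and Tfrc are highest on the LPS pair.

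Between genotypes, Hp and Steap4 were the members with knockout arrays well clear of the wild-type arrays, and neither passed the test over all probe sets. The test was limma's moderated one over all probe sets, because the smallest two-sided p of an exact permutation with 2 arrays a side is 0.333. The Benjamini-Hochberg adjusted p called 0 of 29079 probe sets higher in the knockout (0%) and 0 lower (0%), so 0 of the 17 members tested in either direction. At an unadjusted p under 0.05, 2 of the 17 were higher in the knockout (Hp and the leading probe set of Steap4) and 0 were lower, beside 2.28% and 2.71% of all probe sets. Each knockout array exceeded each wild-type array by 2-fold or more for the same 2 probe sets, beside 0.389% of all, and lay 2-fold or more below for 0, beside 0.33%. Without the size rule, the genotypes' arrays did not overlap for 3 members higher in the knockout (15.4% of all probe sets) and 3 lower (16.3%), and overlapped for the other 11. Hp was already known to stand high in these data when the genes were chosen, so its place among them is a description. The 3 lower were all probe sets of Tfrc, which has 6 of the 17. Among them is a control probe set for the middle of the transcript, under the floor on both knockout arrays. A test needed 2 or more of the 4 arrays above the floor. This probe set entered through its wild-type arrays alone, so it could only stand apart and lower. The median log2 difference was -0.05 over the 17 and -0.01 over all probe sets tested. With the leading probe set of each of the 7 genes tested it was 0.14, so its sign depended on how the probe sets of a gene were counted.

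Hp, the haemoglobin-binding acute-phase gene, had the smallest p among the members. Its scaled intensity was 859.5 and 1054 on the knockout arrays, against 131.1 and 249.7 on the wild-type arrays of the line. On the LPS pair it was 136.5 after LPS and 104.7 in medium. All 4 wild-type arrays thus lay below both knockout arrays. The knockout was 5.26-fold above wild type (log2 2.39, SE 0.35, 95% interval 1.52 to 3.27, n = 2 per genotype), with an adjusted p = 0.767 by limma. The ratio was 6.55 between the arrays numbered 1 and 4.22 between those numbered 2. With 1 of the Trib1-line arrays left out, the log2 difference was 1.93 to 2.86, which was also the range over all alternatives. The limma adjusted p ran from 0.0114 to 0.961 over all alternatives.

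Haptoglobin is also made by liver and stored in neutrophil granules, so markers of both were set beside it. Of 11 neutrophil markers, 8 have a probe set of their own, of which 8 and 6 were above the floor on knockout arrays and 6 and 6 on wild-type arrays of the line. Their summed intensity was 5446 and 3084 on knockout arrays, against 2487 and 1981 on wild-type arrays of the line. The groups did not overlap in this sum, most of which is Mmp8 and Csf3r. Of the 7 markers tested, 3 had knockout arrays above wild-type arrays (Camp, Mmp8 and Csf3r), beside 15.4% of all probe sets. Just 1 had them below (Ltf), beside 16.3%. The others, Mpo, Elane and Ngp, overlapped. The median log2 difference of the 7 was 0.31. Mmp8, a neutrophil collagenase, measured 2587 and 713.6 in the knockout, against 212.1 and 121.8 in wild type. The granule peptide gene Camp measured 219.9 and 66.9, against 11.0 and 7.03 (both under the floor). Camp entered the test through its knockout arrays alone, so its place among the 3 was fixed in advance. Ltf, the lactoferrin gene, which is on both the neutrophil and the iron list, lay the other way, with 40.2 and 12.7 in the knockout, against 87.0 and 87.2 in wild type. Knockout 2 was the higher knockout array for Hp and the lower for Mmp8 and Camp. The hepatocyte list summed to 112.1 and 179.0 on knockout arrays and 131.2 and 174.0 on wild-type arrays, with Ttr and Fgb under the floor on all 6. Fewer cells of a type and less RNA per cell cannot be told apart in such bulk samples, and the part of neutrophils in the Hp values was not tested.

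Sums of 5 other marker lists (mesothelial and stromal, mast cell and eosinophil, B cell, T and NK cell, macrophage) also did not overlap between genotypes, while erythroid and dendritic cell sums overlapped. None of the sums was tested, and their part in the results on iron genes was not tested. Single probe sets did not overlap in 15.4% (higher in the knockout) and 16.3% (lower) of all tested, and no such share was computed for sums. Values under the floor entered the sums as measured. The 7 mesothelial and stromal markers summed to 1254 and 3100 in the knockout, against 774.1 and 1105 in wild type. Each of the 7 was measurable on some array, and most of the sum is Col1a1, Col3a1 and Dcn. The 9 mast cell and eosinophil markers summed to 255.5 and 308.4, against 695.2 and 1103, with Ccr3 under the floor on all 6. The 5 B cell markers with a probe set summed to 313.4 and 517.4, against 538.7 and 704.5. Of 12 markers of erythroid cells, which carry much of the body's iron, 7 have a probe set of their own. Their sum was 198.6 and 245.8 in the knockout, against 181.3 and 261.4 in wild type, and Alas2, Slc4a1, Epb42 and Rhag were under the floor on every array. The 5 T and NK cell markers with a probe set summed to 156.5 and 210.7, against 232.8 and 280.4, and the 5 dendritic cell markers to 387.8 and 375.1, against 352.6 and 633.9. The macrophage list summed to 96947 and 98221, against 80170 and 90157.

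Cd163, the haemoglobin scavenger receptor, could not be compared between genotypes. Its probe set measured 24.9 and 5.16 on knockout arrays and 2.96 and 24.2 on wild-type arrays of the line, all under the floor, and was the 1 member left out of the test. It measured 107.3 after LPS and 122.8 in medium on the LPS pair, a log2 ratio of -0.19. The wild-type arrays with LPS therefore did not resemble each other: Cd163 was measurable on the pair's array and on neither wild-type array of the Trib1 line. Mrc1, another macrophage scavenger receptor gene, showed a like split. It measured 3503 and 5430 on the LPS and medium arrays of the pair and 280.0 to 667.3 on the Trib1-line arrays. The scavenger receptor gene Msr1, also on the macrophage marker list, showed none. It measured 4627 and 4513 on the LPS and medium arrays of the pair and 2425 to 6671 on the Trib1-line arrays.

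Promoter sequences are shown for Steap4, the reductase gene that stood high in the knockout, and for Cd163, because theirs are the member windows that hold the letters of a C/EBP consensus. They are RefSeq sequences of the GRCm38.p6 build, 250 bases before the annotated start, read along the gene, with the match in capitals. The letters searched were TTNNGNAAT on both strands.
Steap4, chr5:7960222-7960471, plus strand: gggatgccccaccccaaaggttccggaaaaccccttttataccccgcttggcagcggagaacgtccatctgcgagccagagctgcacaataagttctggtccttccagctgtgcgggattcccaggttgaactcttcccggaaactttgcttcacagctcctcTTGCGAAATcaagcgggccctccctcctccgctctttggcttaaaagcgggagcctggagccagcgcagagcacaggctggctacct
Cd163, chr6:124304401-124304650, plus strand: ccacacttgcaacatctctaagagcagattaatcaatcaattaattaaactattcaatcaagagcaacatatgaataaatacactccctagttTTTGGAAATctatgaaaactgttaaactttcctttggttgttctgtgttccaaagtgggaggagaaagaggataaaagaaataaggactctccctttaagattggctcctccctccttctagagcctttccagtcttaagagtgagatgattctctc

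In Steap4 the match begins 87 bases before the start, and in Cd163 it begins 157 bases before it. Of 11 windows for 6 of the members, these 2 held a match. The same letters occur in 10.2% of all 32851 promoter windows of this length, so a match is common. It is a description of the letters and not a site. Hp and Slc40a1 were not among the sequences used.

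Steap4, a plasma and endosomal membrane metalloreductase known to be inducible by inflammatory cytokines, measured 441.9 and 231.0 on the knockout arrays at its leading probe set 1460197_a_at, against 60.9 and 29.0 on the wild-type arrays of the line. The lower knockout value was above every wild-type value, and wild type 2 was under the floor. The log2 difference was 2.90 (SE 0.52, 95% interval 1.61 to 4.20, n = 2 per genotype; limma adjusted p = 0.787), a 7.49-fold ratio computed with wild type 2 at the floor. The ratio was 7.26 for the arrays numbered 1 and 7.73 for those numbered 2. With 1 of the Trib1-line arrays left out, the log2 difference was 2.39 to 3.42. The limma adjusted p ran from 0.019 to 0.961 over all alternatives. The dimmer probe set 1425829_a_at measured 150.1 and 35.7 in the knockout, against 36.6 and 16.3 in wild type. Its arrays overlapped, because knockout 2 lay just under wild type 1, and its log2 difference was 1.15 (SE 0.69, adjusted p = 0.999 by limma). That value rested on single arrays: it was 0.11 without knockout 1 and 2.18 without knockout 2. Wild type 2 was under the floor here too, and with the floor at the 25th percentile the difference was 1.58.

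On the LPS pair the leading Steap4 probe set measured 123.1 after LPS and 41.7 in medium, a 2.96-fold ratio. The other probe set measured 63.0 after LPS and was under the floor in medium, at least 2.11-fold higher. With 1 array per condition these ratios have no test. On the wild-type arrays of the Trib1 line, also given LPS, the leading probe set was 1.46-fold above that medium array on wild type 1 and below it on wild type 2. The wild-type LPS arrays of the 2 sets thus differ for Steap4. At the leading probe set the pair's LPS value lies between the wild-type and the knockout values of the line. At the other probe set it lies between the knockout values, 35.7 and 150.1.

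Steap3, the reductase best known for its role in the endosomes of red cell precursors, gave no single direction. Its leading probe set 1423468_at measured 158.0 and 73.3 in the knockout, against 95.7 and 169.2 in wild type (log2 -0.24, SE 0.52). The probe set 1430355_a_at measured 104.9 and 85.7, against 97.8 and 132.3 (log2 -0.26, SE 0.36). In contrast 1453498_x_at, a design that may cross-hybridise with other transcripts by its suffix, measured 108.1 and 126.4, against 74.7 and 72.0, with arrays that did not overlap (log2 0.67, SE 0.34). All 3 had an adjusted p = 0.999 by limma. After LPS the leading probe set measured 42.8 on the pair, against 127.9 in medium (log2 -1.58), and on wild type 1 and 2 of the Trib1 line it was 0.748 and 1.32 times that medium value, so the pair's lower value was not seen on the other wild-type LPS arrays.

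Transferrin receptor was measured by 6 probe sets, 3 of them control probe sets placed at the 3′ end, the middle and the 5′ end of the transcript. At the leading probe set 1452661_at the intensity was 485.9 and 306.5 in the knockout, against 515.2 and 614.7 in wild type. It was 1342 after LPS and 1488 in medium on the LPS pair. Knockout arrays were below wild-type arrays, and all 4 Trib1-line arrays were below both arrays of the pair. The genotype difference was -0.54 on the log2 scale (SE 0.29, 95% interval -1.26 to 0.17; limma adjusted p = 0.999). All 6 probe sets had a log2 difference under 0, from -0.54 to -0.08, with arrays that did not overlap in 3. The value of -0.08 belongs to the middle control probe set, 1 of these 3. It was under the floor on both knockout arrays (21.5 and 9.27, against 32.8 and 30.5 in wild type). It was thus tested through its wild-type arrays alone, and its separation was fixed in advance. With the floor at the 25th percentile its log2 difference was -0.89. The probe sets share a transcript, so they do not count as separate evidence, and 2 of the 6 turned positive when an array was left out.

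The larger contrast for Tfrc lay between the sets of arrays. For 6 of 6 Tfrc probe sets and for Cd163 both arrays of the LPS pair were above all 4 Trib1-line arrays. This held for 7 of 18 members, beside 11.4% of all probe sets measurable on a pair of arrays or more. The 6 Tfrc probe sets share a transcript, so by gene the 7 are Tfrc and Cd163 only. Slc11a1 was the 1 member with both pair arrays below all 4 Trib1-line arrays, beside 12.6%. Deposited scale, the sex-linked genes above and the strain or line differ between the sets or are not given, and cannot be told apart here. The ratio of the 3′ to the 5′ Tfrc control probe set was 2.22 and 2.46 on knockout arrays and 2.87 and 2.14 on wild-type arrays of the line. It was 3.10 on the LPS array, the highest, and 2.54 on the medium array. The 5′ control measured 27.9 on knockout 2, under the floor, and 32.5 on wild type 1, near it. The part of this ratio in the contrast between the sets was not tested. Within the pair, the Tfrc log2 ratios of LPS over medium ran from -0.35 to 0.59 over the 6 probe sets. At the leading probe set the ratio was -0.15. With 1 array per condition these ratios have no test. At the leading probe set that medium array was also 2.89-fold above wild type 1 and 2.42-fold above wild type 2 of the Trib1 line, both given LPS.

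**Figure D2:**
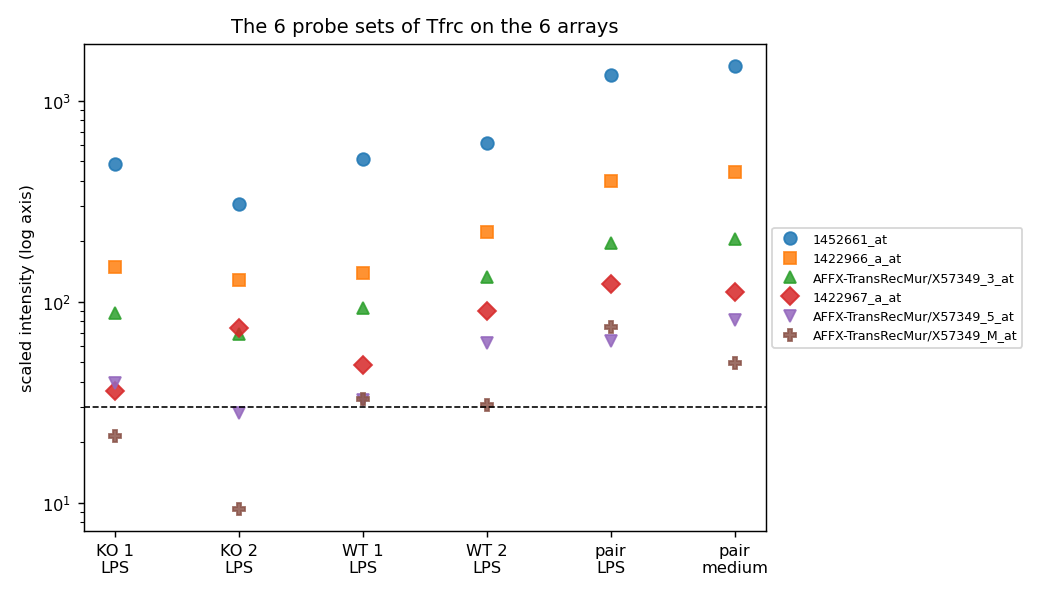
Scaled intensity (log axis) of the 6 Tfrc probe sets on the 2 knockout, 2 wild-type Trib1-line and 2 LPS pair arrays, with the floor of 29.9 dashed. Each probe set is higher on both LPS pair arrays than on any of the 4 Trib1-line arrays, and the leading one reaches 1488 in medium.

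Ferritin heavy chain was the steadiest member. Its probe set 1448771_a_at measured 21933 and 20368 in the knockout, against 20732 and 23034 in wild type, and 1427021_s_at measured 18498 and 18301, against 17942 and 20334. The genotypes' arrays overlapped at both. The log2 difference was -0.05 at both (SE 0.17, 95% interval -0.47 to 0.37, n = 2 per genotype; limma adjusted p = 0.999), and the interval at 1448771_a_at spans folds of 0.722 to 1.30. Its sign was not the same under every scaling, since both values were 0.00 to 0.02 with the deposited values or quantile normalization. On the LPS pair Fth1 measured 27080 after LPS and 18920 in medium at 1448771_a_at (1.43-fold), and 20502 and 16481 at 1427021_s_at (1.24-fold). The wild-type arrays of the Trib1 line were also above that medium array at both, by 1.09-fold to 1.23-fold. Fth1 has many processed copies in the genome that such probes may share.

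Among the transporters, Slc11a1, the phagosomal metal pump linked to resistance against intracellular bacteria in mice, measured 8830 and 10567 in the knockout, against 8038 and 9517 in wild type. The arrays overlapped (log2 0.14, SE 0.19, 95% interval -0.32 to 0.61; limma adjusted p = 0.999). On the LPS pair it measured 5892 after LPS and 7783 in medium, a log2 ratio of -0.40, while the wild-type arrays of the Trib1 line were 1.03 and 1.22 times that medium value.

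Slc40a1, the exporter ferroportin, was dim on every array. At 1448566_at it measured 121.6 and 50.5 in the knockout, against 42.1 and 66.3 in wild type (log2 0.57, SE 0.54, adjusted p = 0.999 by limma). At 1417061_at it measured 76.3 and 44.2, against 59.4 and 57.4 (log2 -0.01, SE 0.40). The high value of 1448566_at came from knockout 1 alone, and without it the log2 difference was -0.07. Against medium, all 3 wild-type LPS arrays were lower at both probe sets: 64.8 on the pair's LPS array, 42.1 on wild type 1 and 66.3 on wild type 2, against 108.1 in medium, at 1448566_at. At 1417061_at the same arrays measured 58.8, 59.4 and 57.4, against 87.1 in medium. All 3 lay below medium for 29.2% of all probe sets. Wild type 1 and 2 belong to another set of arrays than medium, so for them LPS and set cannot be told apart. The fit of the 3 LPS arrays against medium gave -0.93 (SE 0.52) and -0.57 (SE 0.46) on the log2 scale, with limma adjusted p of 0.715 and 0.824.

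**Figure D3:**
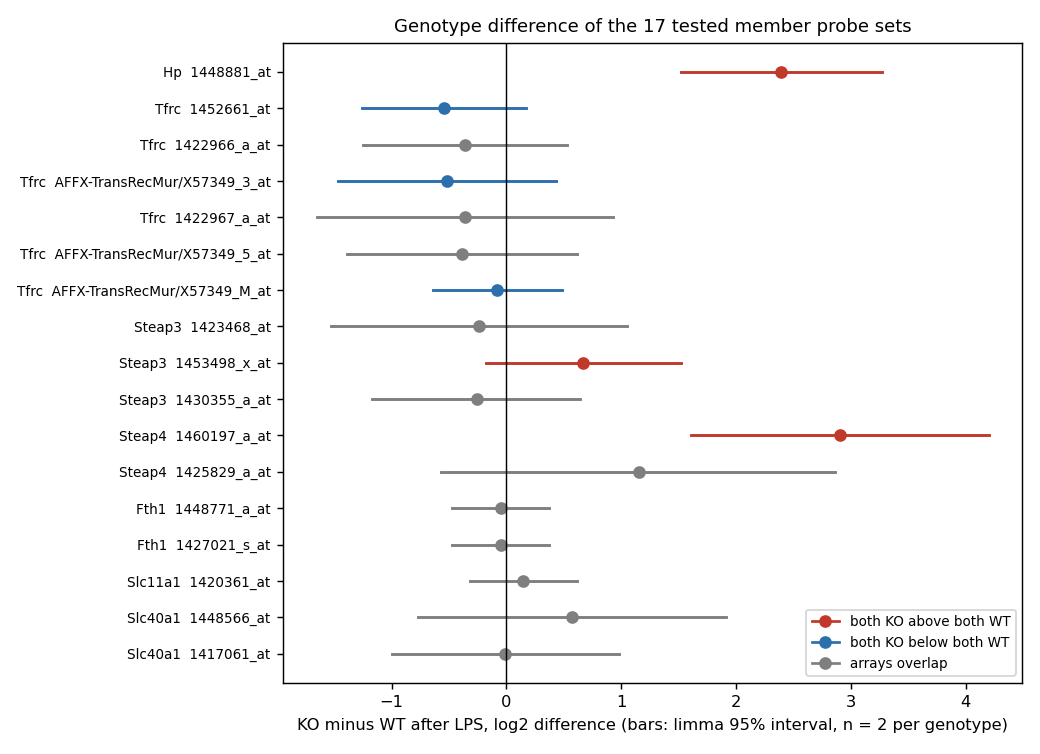
Log2 difference of knockout minus wild type after LPS (points) with limma's 95% interval (bars) for the 17 member probe sets tested, n = 2 arrays per genotype. The intervals of Hp (1.52 to 3.27) and of the leading Steap4 probe set (1.61 to 4.20) lie above 0, and all others span it.

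For LPS itself, none of the 18 members met the rule of a 4-fold ratio between the arrays of the pair, in either direction, beside 0.986% of all probe sets induced and 0.598% repressed. At 2-fold there were 2 members higher (both of Steap4, beside 5.02%) and 1 lower (Steap3, beside 6.29%). The median log2 ratio was -0.15 over the 18 members and -0.09 over all probe sets measurable on an array of the pair. When the medium array was set against all 3 wild-type LPS arrays, with the spread taken from the LPS arrays and the medium array assumed to vary alike, 0 of 18 members passed limma's adjusted threshold, beside 0.158% of all probe sets higher and 0.0106% lower. At an unadjusted p under 0.05 the fit also held 0 members, beside 3.65% higher and 4.51% lower. All 3 LPS arrays lay above medium for 3 members (Hp and both probe sets of Fth1), beside 22.1% of all probe sets, and below it for 8, beside 29.2%. The leading Tfrc probe set passed only with the pair's LPS array left out (log2 -1.40, adjusted p = 0.0239, range over its alternatives 0.0239 to 0.851), a comparison across the sets of arrays.

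The wider iron and haem pathway was read from a list of 53 other genes, of which 50 have a probe set of their own and 47 were tested. None passed limma's adjusted threshold in either direction. At an unadjusted p under 0.05, 7 of the 47 were higher in the knockout and 1 lower, beside 2.28% and 2.71% of all probe sets. The arrays did not overlap in 16 genes higher and 4 lower, beside 15.4% and 16.3% of all probe sets, with the other 27 overlapping, and the median log2 difference was 0.13, beside -0.01 over all probe sets. By group, the arrays stood apart and higher in the knockout for 6 of 13 haem genes, 5 of 11 import genes, 2 of 7 export and hepcidin genes, 1 of 4 regulators, 1 of 3 sequestration genes and 1 of 5 iron-sulphur cluster genes. The 2 export and hepcidin genes were Hjv and Bmp6. Hjv was under the floor on both wild-type arrays of the line. It entered the test through its knockout arrays alone, so its place among the 16 was fixed in advance. Bmp6 lay near the floor on both knockout arrays and wild type 2 and under it on wild type 1, with a log2 difference of 0.13. The groups are small, and counts such as 1 of 5 lie near the share over all probe sets. They stood apart and lower for 1 haem gene (Bach1), 1 import gene (Tfr2), 1 of 4 storage genes (Pcbp1) and 1 sequestration gene (Ltf), all but Ltf within 1 log2 unit.

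Hmox1, the inducible enzyme that opens the haem ring and releases its iron, had the smallest p of the list. It measured 3321 and 3540 on knockout arrays, against 1803 and 1556 on wild-type arrays of the line (log2 1.03, SE 0.17; limma adjusted p = 0.767). Its level in medium, 2689, lay between the genotypes, and it was 2100 on the pair's LPS array. Fbxl5, the iron-sensing ubiquitin ligase subunit that removes iron regulatory protein, measured 4662 and 3049, against 1397 and 829.2 (log2 1.81, SE 0.33; limma adjusted p = 0.787). Each knockout array was 2-fold or more above each wild-type array. Its targets' genes Ireb2 and Aco1 overlapped between genotypes, with log2 differences of 0.01 and 0.12.

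Slc39a14, a transporter of zinc and of iron not bound to transferrin, measured 1216 and 674.2 in the knockout, against 427.5 and 406.9 in wild type (log2 1.12, SE 0.31; limma adjusted p = 0.911). It also met the 4-fold LPS rule, at 1280 on the LPS array and 216.9 in medium (5.90-fold), though wild type 1 and 2 of the Trib1 line reached 1.97 and 1.88 times that medium value. Ltf, given above beside Hp, was the gene with the smallest p that was lower in the knockout (log2 -1.33, SE 0.34; limma adjusted p = 0.899). Knockout 2 was under the floor and entered at it.

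Lcn2, which encodes a protein that captures bacterial iron-binding siderophores, was the other gene past the LPS rule, at 2334 on the LPS array and 208.7 in medium (11.2-fold). It measured 15576 and 7749 in the knockout, against 3714 and 394.6 in wild type. The wild-type arrays differed more from each other than wild type 1 did from either knockout array, and the log2 difference of 3.18 had an SE of 1.02 (limma adjusted p = 0.950). The relatives Steap1, at 136.0 and 108.7, against 63.2 and 49.5, and Steap2, at 57.1 and 72.3, against 45.6 and 32.4, had knockout arrays above wild-type arrays like Steap4, with log2 differences of 1.12 (SE 0.37) and 0.74 (SE 0.35). Steap1 and Steap2 were picked for mention after their values were seen, as members of the STEAP family, and had limma adjusted p of 0.950 and 0.999.

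**Figure D4:**
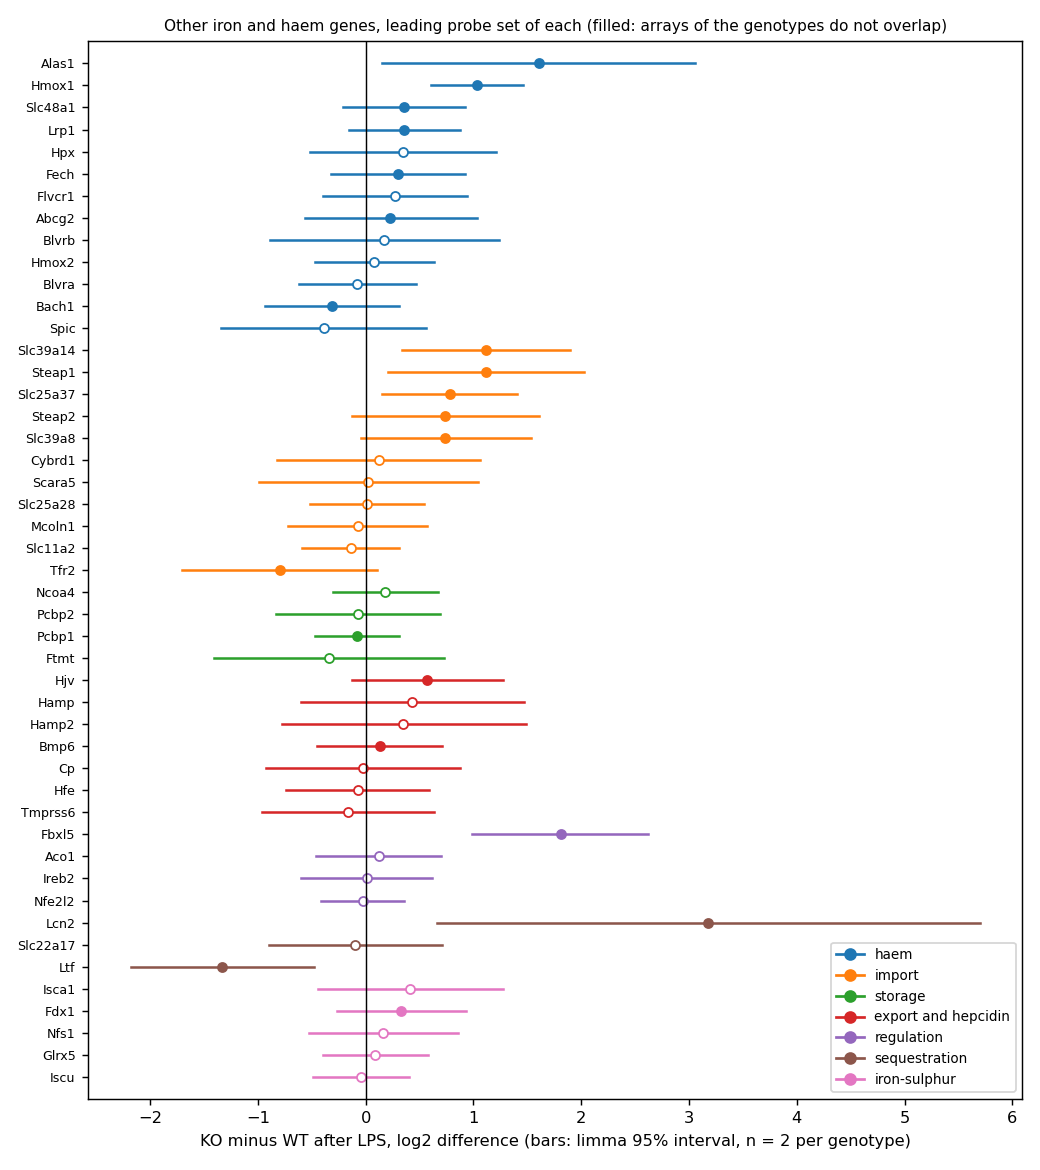
Log2 difference of knockout minus wild type after LPS (points, filled where the arrays of the genotypes do not overlap) with limma's 95% interval (bars) for 47 other iron and haem genes, by group, n = 2 arrays per genotype. Lcn2 (3.18), Fbxl5 (1.81), Alas1 (1.61) and Hmox1 (1.03) lie to the right of 0, and Ltf (-1.33) to the left.

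Genes with a like pattern over the 6 arrays were looked for among 23503 probe sets by the mean absolute difference of centred log2 values, for the 4 members whose leading probe set spanned at least 4-fold. For Hp (10.1-fold span) they were the EGF-family growth factor gene Ereg (0.20), the palmitoyltransferase gene Zdhhc2 (0.27) and the calgranulin gene S100a8 (0.33). For Steap4 (14.8-fold) they were Plet1 (0.32), Acpp (0.35) and Trem1 (0.36). For Tfrc (4.85-fold) they were the calcium pump gene Atp2b1 (0.09), the complement gene C1qb (0.13) and the fatty acid-binding protein gene Fabp4 (0.13). For Cd163 (4.11-fold, limited by the floor) they were Zbtb20 (0.10), Glb1 (0.11) and Ceacam1 (0.13). C1qb, for example, measured 3635 and 2793 on knockout arrays, 4454 and 4090 on wild-type arrays of the line, 10564 on the LPS array and 10994 on the medium array. The genes near Hp and Steap4 were those high on knockout arrays, and those near Tfrc and Cd163 were those high on both arrays of the LPS pair. Values under the floor entered these distances at the floor. Ereg was under it on wild type 1 (21.4), the LPS array (21.3) and the medium array (15.6). Zdhhc2, Plet1, Acpp and Zbtb20 were also under it on some arrays. With 6 arrays that share their scaling, these distances are descriptions.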

How the data were processed

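The authors deposited 1 linear intensity per probe set and array, made with MAS5 per the submitters' processing notes (version and scaling target not given in the sources used here), from biotinylated cRNA of TRIzol-extracted RNA per the labels. Of 45101 probe sets, 61 control probe sets were left out and the 3 of Tfrc kept. Of the 45040 used, 34948 list 1 gene symbol, 932 several and 9160 none, and 34744 of the identifiers matched RefSeq. Arrays were multiplied to the same 2% trimmed mean, 233.9, floored at the pooled 40th percentile and taken to log2. Precision is limited by how few arrays there are.

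For genotypes, limma 3.58.1 in R 4.3.3 was used (two-sided, with a mean-variance trend, on 2 residual and 3.68 prior degrees of freedom), with Benjamini-Hochberg adjustment at 0.05 over all probe sets that 2 or more of the 4 arrays measured above that floor. LPS was compared with medium by a 4-fold rule, without a test. The methods were tested on simulated data. Figures were drawn with Python 3.11.15 and matplotlib 3.10.9.

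The members, lists and tests were chosen with earlier results of these data known. Named were all members, genes of the iron list past the LPS rule or a test, its 4 smallest p with separate genotypes, the 3 most alike genes per member, Trib1, and Il6, Il12b and Nos2 as LPS checks. Alternatives were other scalings, floors, filter, prior, block and left-out arrays.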

Additional observations from a re-analysis of the deposited data

How the results depend on the processing

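Calls depended on which arrays entered the fit, and the cause was not tested. A genotype fit with a Trib1-line array left out has 1 array for that genotype, so its spread comes from the other genotype alone. Leaving out 1 of the 4 Trib1-line arrays gave 5 to 36 probe sets higher in the knockout and 0 to 32 lower, in place of 0 and 0, and 0 to 1 members past the threshold. With the number of the labels as a replicate block, 85 were higher and 31 lower, among them 2 members: Hp (log2 2.39, adjusted p = 0.0114) and Steap4 1460197_a_at (2.90, 0.019). Same-numbered knockout and wild-type arrays share that number in their labels, which do not say whether it marks a pair. The deviations of knockout 1 and wild type 1 from their group means correlated with r = 0.35 across 29079 probe sets, and the block leaves 1 residual degree of freedom. Every other alternative gave 0 calls. Leaving out a wild-type LPS array in the fit against medium gave 0 to 1 members.

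LPS calls moved with the rule. Higher and lower counts, 287 and 174 as reported, were 790 and 815 with deposited values and 501 and 465 with the floor at the 25th percentile (1 member each, Steap4 1425829_a_at), since both lower the floor for the pair. The floor at the 60th percentile gave 85 lower, the 2-fold rule 1461 and 1832 (3 members), and the 8-fold rule 82 and 17. Wild type 1 in place of the LPS array gave 370 lower, and wild type 2 gave 447 higher and 489 lower (1 member each, Cd163).

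Log2 genotype differences changed sign, never with a call, for Tfrc 1422967_a_at (-0.88 to 0.16 with an array left out) and its 5′ control (-0.86 to 0.08), Steap3 1423468_at (-0.79 to 0.31, and 0.28 with the pair's LPS array added to wild type), Slc40a1 1448566_at (-0.07 to 1.20) and 1417061_at (-0.40 to 0.39, 0.06 with deposited values, 0.01 with quantile normalization and 0.00 with log2 of the value plus 16). Fth1 1448771_a_at gave 0.02 with deposited values, 0.01 with quantile normalization and -0.12 to 0.03 with an array left out, and 1427021_s_at gave 0.01, 0.00 and -0.14 to 0.04. In the fit of 3 LPS arrays against medium, deposited values mix arrays of unlike scale, and gave -0.91 for Hp, -1.43 for Steap3 1430355_a_at (-0.06 to 0.29 with an array left out), -0.78 for Steap4 1460197_a_at, and -1.25 and -1.32 for Fth1. Slc11a1 ran from -0.18 to 0.17 with an array left out. Of 210 genotype values of members, 187 kept their direction and side of the threshold.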
